A study of Arabidopsis thaliana with 12 samples.

Results

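Flavonoid and anthocyanin synthesis genes are described here by the binding of MAC3A on chromatin in Arabidopsis thaliana seedlings. The set holds 9 genes, chosen by locus identifier out of 27444 protein-coding genes on nuclear chromosomes 1 to 5. They are CHS, CHI, F3H, F3'H, FLS1, DFR, LDOX and UF3GT, which encode enzymes, and TT8, which encodes a regulator. MAC3A belongs to the MOS4-associated complex, which is related to the Prp19 complex of the spliceosome. The series title sets it against HY5, which activates the genes of light-grown seedlings, and the question put to these genes was which steps of the pathway carried MAC3A, in darkness and in blue light.

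MAC3A was mapped by ChIP-seq, in which chromatin fragments bound by a protein are recovered with an antibody and sequenced. Of 12 samples, 6 were MAC3A libraries, 3 titled dark and 3 titled blue, each with a separate peak list. A further 6 samples were controls, 3 per condition, and their signal is not used here. All samples carried the genotype label Columbia-4 and were 6-day-old seedlings. The growth notes name blue light for every sample, and the dark or blue grouping is that of the titles. They describe lines expressing MAC3A-GFP, while the antibody of every sample is given as anti-FLAG M2, and they name a GFP-only line as control where the titles say input. For the transgene's promoter and the number of independent lines, no source used here gives an answer. The list of dark replicate 3 carries the submitters' mark of dark replicate 2. The lists of these libraries had 0 intervals in common with identical ends. One is thus no copy of the other, but the origin of the reads is not settled by this. The lists held 1169 to 1285 peaks in the dark and 1505 to 1820 in blue light. Read totals were not used here, so the depth behind each list is unknown.

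Flavonoids are made from phenylpropanoids along a chain of enzymes. Chalcone synthase (CHS) takes the first committed step, and CHI, F3H and F3'H shape the flavonoid skeleton. From there FLS1 leads to flavonols, which act as sunscreens, while DFR, LDOX and UF3GT lead to the red and purple anthocyanins. TT8 is a bHLH protein that activates the late genes together with MYB partners. Light raises the expression of many of these genes, and HY5 is a well-known activator of CHS.

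LDOX was the one member with MAC3A summits in more than 1 library. This gene (AT4G22880, leucoanthocyanidin dioxygenase, also called anthocyanidin synthase), which forms the coloured anthocyanidins, had 1 summit inside the gene body in each of the 6 libraries. UF3GT (AT5G54060), which adds a sugar to anthocyanins, had a summit beside the gene in 1 dark library. The other 7 genes had no listed summit in their bodies or 1 kb flanks in any library. Bound in a condition means here that at least 2 of its 3 libraries had such a summit. By this rule 1 of 9 members was bound in the dark, against 5.62% of all protein-coding genes, and 1 of 9 in blue light, against 7.37%. With so few genes, 1 in 9 (11.1%) is near both backgrounds, so the count by itself sets the pathway apart from neither. A summit in the body in all 6 libraries, as at LDOX, was found for 435 genes, 1.59% of those tested. No listed summit in any library was the common state, at 86.3% of protein-coding genes, and the 7 unbound members shared it.

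**Figure D1:**
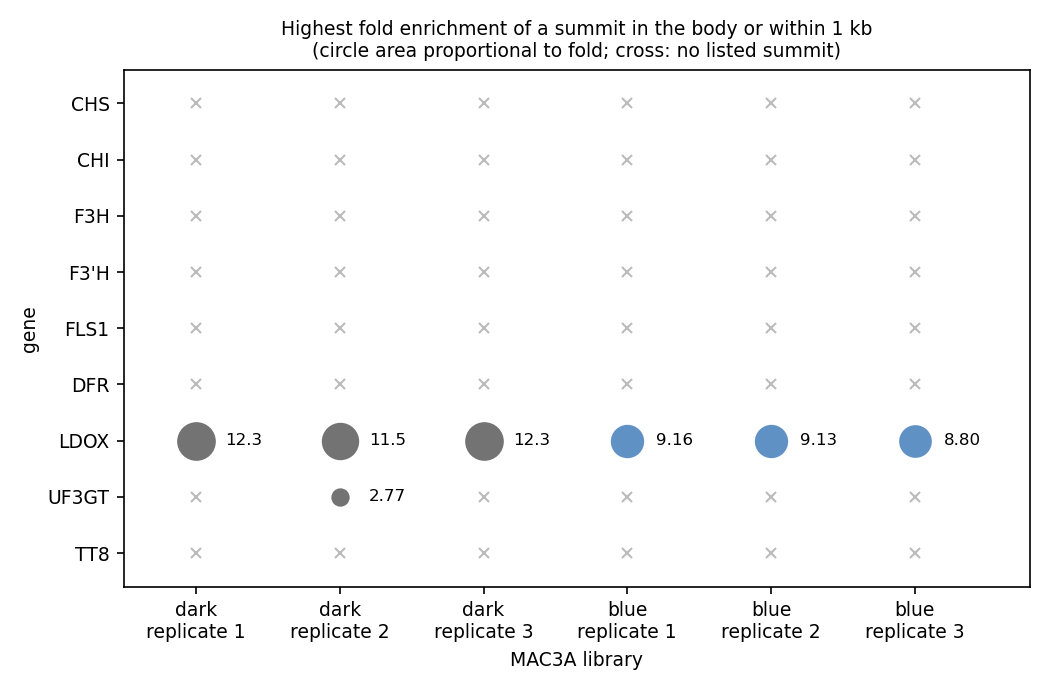
Highest fold enrichment of a MAC3A summit in the body or within 1 kb of each of the 9 genes (rows) in the 3 dark and 3 blue-light libraries (columns). Circle area is proportional to fold and crosses mark no listed summit. LDOX has a circle in all 6 libraries, from 8.80 to 12.3, and UF3GT one in dark replicate 2, at 2.77.

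At LDOX the fold enrichment over the peak caller's local background was 12.3, 11.5 and 12.3 in dark replicates 1, 2 and 3. In blue replicates 1, 2 and 3 it was 9.16, 9.13 and 8.80. The dark values were higher at LDOX, and folds were lower in blue light over shared regions too. Over the 533 regions with a peak in all 6 libraries, the median ratio of blue to dark mean fold was 0.820. The ratio was 0.750 at LDOX, and 31.3% of these regions had a lower one. A fold, however, is what the authors' caller gave that peak in that list, and the list medians were also lower in blue light, at 2.78 to 2.85 against 3.33 to 3.37 in the dark. Folds were therefore read within lists. The −log10 q of the LDOX summit was 62.3, 53.8 and 61.8 in the dark lists and 51.7, 57.1 and 50.3 in the blue lists. These values overlapped between the conditions. By fold, LDOX ranked 31 of 1464 summits, 31 of 1373 and 28 of 1342 in dark replicates 1 to 3. In blue replicates 1 to 3 it ranked 25 of 1725, 34 of 2139 and 35 of 1828. LDOX was thus among the top 1.45% to 2.26% of summits in every list.

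The place of LDOX among strong MAC3A regions was compared between conditions over the 533 regions that had a peak in all 6 libraries, so that every library ranked the same number of regions. Ranked by fold, LDOX stood at 31, 31 and 28 in dark replicates 1 to 3 and at 25, 34 and 35 in blue replicates 1 to 3. The blue ranks surrounded the dark ones. The mean rank was 30.0 ± 1.73 (SD, n = 3) for the dark libraries and 31.3 ± 5.51 (SD, n = 3) for the blue ones. The difference of 1.33 places was smaller than the spread between the blue libraries (exact permutation test, two-sided, p = 0.8). It turned to -2 places when regions were ranked by −log10 q (exact permutation test, p = 0.6) and to -0.5 without blue replicate 3 (exact permutation test, p = 1.0). Without blue replicate 1 it grew to 4.5 places (exact permutation test, p = 0.1). With 3 libraries against 3 the smallest p is 0.10, and it is the same over the 10 assignments left without 1 library. Nothing in the labels says that the libraries came from separate cultures, so p measures the spread between these libraries, which may be technical.

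**Figure D2:**
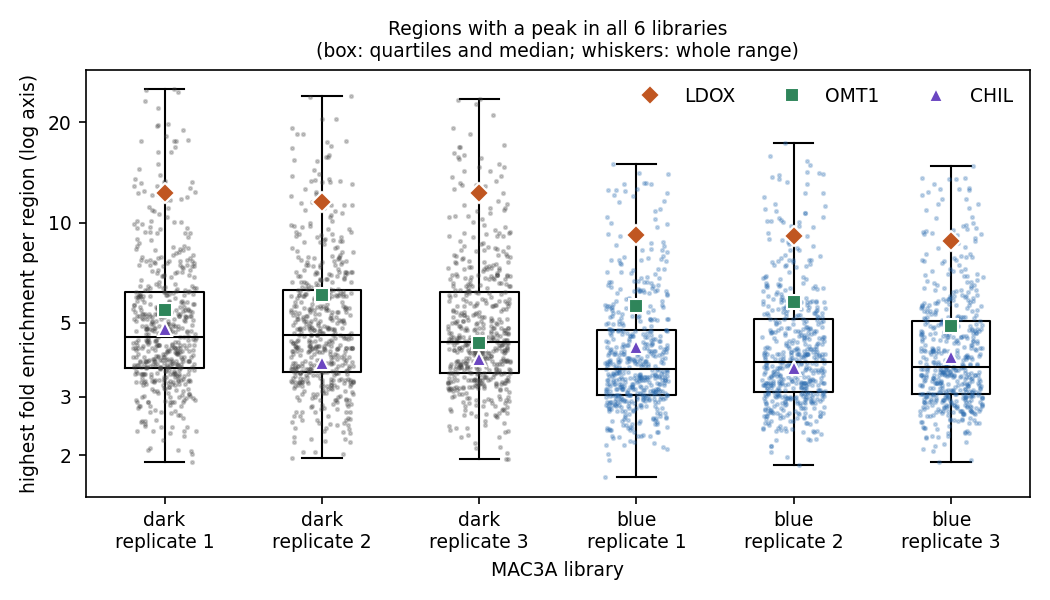
Highest fold enrichment (log axis) of each of the 533 regions with a peak in all 6 libraries, per library, with dark libraries in grey and blue-light libraries in blue. Boxes give quartiles and median and whiskers the whole range. LDOX (8.80 to 12.3) lies above the box in every library, OMT1 lies at 4.36 to 6.05 and CHIL at 3.66 to 4.80.

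The LDOX peaks also coincided in position. Coordinates follow the deposited lists (TAIR10, counted from 1). The summits lay on chromosome 4 at 12006084, 12006028 and 12006094 for dark replicates 1 to 3, and at 12006080, 12006063 and 12006075 in blue replicates 1 to 3. All 6 fell within 66 bp. Measured from the gene's lower-coordinate end, the mean summit position differed by 4 bp between blue light and the dark, against an SD of 35.6 bp over the dark and 8.74 bp over the blue libraries (two-sided exact permutation test, p = 1.0). Dark replicate 2 lay farthest from the rest, and without it the difference was -16.3 bp (exact permutation test, p = 0.2). Peak widths ran from 791 to 912 bp, and a stretch of 776 bp from 12005636 to 12006411 lay inside the peak of every library.

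**Figure D3:**
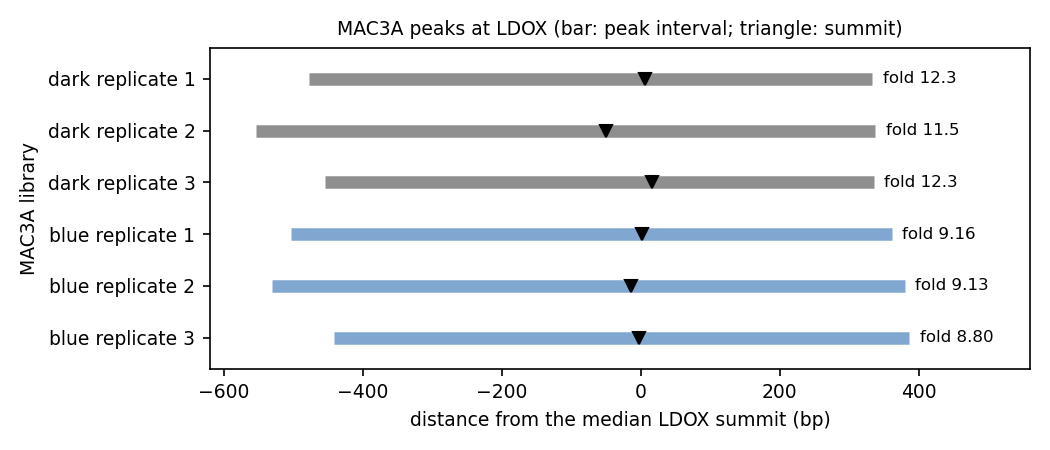
MAC3A peak intervals at LDOX in the 6 libraries (bars; dark in grey, blue light in blue) by distance in bp from the median summit, with triangles at the summits and the fold beside each bar. The 6 summits fall within 66 bp, and the widths run from 791 to 912 bp.

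The summits lay at the edge of the LDOX body that faces PGRL1A (AT4G22890), a gene of cyclic electron flow around photosystem I. With gene ends from the gene table (assembly TAIR10.1), they were 115 to 181 bp inside that edge of LDOX and 892 to 958 bp outside the body of PGRL1A. PGRL1A therefore met the 1 kb rule in all 3 dark and all 3 blue libraries, with 0 libraries having a summit in its body. The peaks are assigned to LDOX by summit position, although every peak interval ran past that edge into the stretch between the genes. The table gives no strand, so the edge is not called a start or an end of transcription here. The neighbour on the other side, AT4G22870, had a summit in 0 dark and 0 blue libraries. The peak was isolated, with the next summit 38.6 kb away in 5 libraries and 12.3 kb away in dark replicate 2. LDOX was the shortest of the 9 genes, at 1484 bp against a median of 2078 bp for protein-coding genes.

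Among the 435 genes with a summit in the body in all 6 libraries, LDOX ranked 26, 26 and 24 by highest fold in the dark lists and 23, 29 and 29 in the blue lists. The genes whose folds were most like those of LDOX were sought by the mean absolute log2 ratio of highest fold over the 6 libraries. They were AT5G55340, with a mean ratio of 0.09 on the log2 scale, the receptor-like kinase gene RBK2 (AT3G05140) with 0.11, and SEOa (AT3G01670), a sieve element protein gene, with 0.13. RLP29 (AT2G42800), a receptor-like protein gene, and AT4G10390 followed, each with 0.15. None of these 5 is a gene of the flavonoid lists used here.

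The early steps had no summit near them. CHS (AT5G13930) had its nearest summit 18.0 to 46.6 kb away, depending on the library. CHI (AT3G55120), which closes the chalcone ring, had it 70.3 to 125 kb away, and F3H (AT3G51240), flavanone 3-hydroxylase, 27.5 to 55.4 kb away. For F3'H (AT5G07990), the cytochrome P450 that adds the B-ring hydroxyl, the nearest summit was 24.8 kb away in each blue library. In the dark it was 42.9, 51.7 and 51.6 kb away. The median protein-coding gene lay 30.6 to 32.7 kb from a summit in the dark lists and 21.8 to 25.9 kb in the blue lists, which are longer. The distances of CHS, F3H and F3'H were thus of the usual order, and those of CHI were longer than the median in every list.

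On the flavonol branch, FLS1 (AT5G08640) lay 44.8 to 61.7 kb from the nearest summit. On the anthocyanin branch, DFR (AT5G42800), which makes the substrate of LDOX, lay 58.0 to 220 kb away. UF3GT acts after LDOX. Its summit in dark replicate 2 lay 428 bp outside the body, in a peak on chromosome 5 from 21936270 to 21936608, and was also within 1 kb of AT5G54050. Its fold was 2.77 and its −log10 q 2.06, close to the lowest −log10 q of that list, 2.02. In the other 5 libraries the nearest summit to UF3GT was 43.7 kb away. A summit in exactly 1 library was found for 4.21% of protein-coding genes. The regulator gene TT8 (AT4G09820) lay 59.3 to 59.4 kb from the nearest summit in all 6 libraries, although it is the longest of the 9 genes at 4643 bp.

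**Figure D4:**
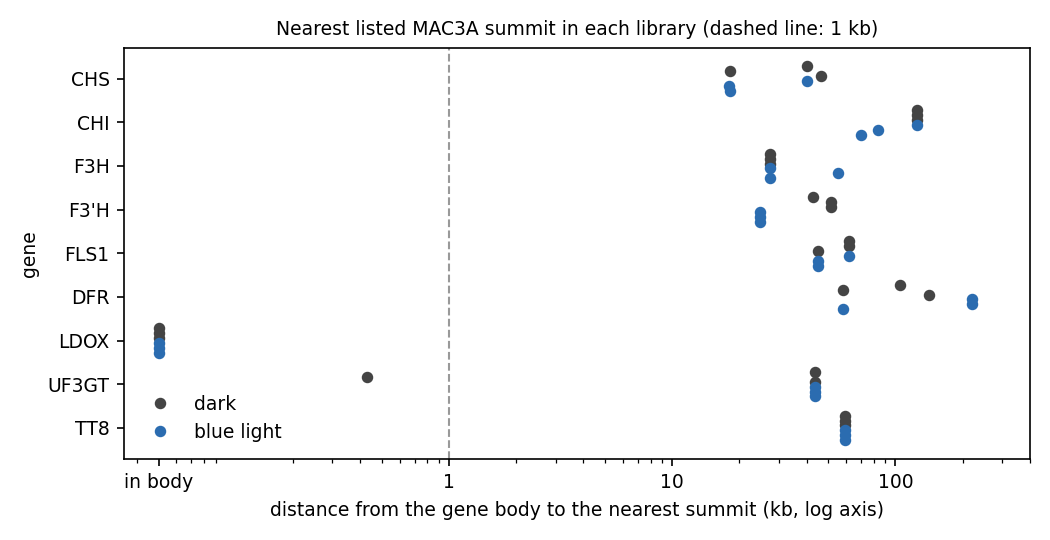
Distance in kb (log axis) from the body of each of the 9 genes to the nearest listed MAC3A summit, 1 point per library, dark in grey and blue light in blue. All 6 LDOX points lie in the body, 1 dark UF3GT point lies at 0.428 kb, and every other point lies at 18.0 kb or more.

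Set against the other steps, LDOX had a summit in 6 libraries and no other member in more than 1. With gene bodies only, with lists cut to equal length, with −log10 q limited to 5 or more, or with folds limited to 3 or more, LDOX kept its 6 libraries and the other 8 members had a summit in 0. The LDOX values lay far above these limits in every list. No summit means that the caller listed none at its threshold, a lowest −log10 q of 2.00 to 2.02 and a lowest fold of 1.47 to 1.70 over the lists. Weaker binding at the other steps was not detectable in these files.

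A wider list of 55 genes, from phenylpropanoid entry to pigment transport and regulation, held 5 genes bound in the dark and 4 in blue light, with 7 bound in at least 1 condition. The shares of 9.09% and 7.27% compare with 5.62% and 7.37% of all protein-coding genes. OMT1 and CHIL were bound in all 6 libraries, against 2.70% of protein-coding genes. Of the 55 genes, 47 had no listed summit in the body or within 1 kb in any library, the state of 86.3% of all protein-coding genes. Absence of a summit was thus the usual state, also for the groups without summits named below. Without dark replicate 3 the dark count was 3, since MYB4 and HY5 no longer had 2 dark libraries.

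OMT1 (AT5G54160) encodes a methyltransferase of lignin precursors that also methylates flavonols. Its summits lay in the body in all 6 libraries, in peaks on chromosome 5 between 21981812 and 21982531. The fold was 5.48, 6.05 and 4.36 in dark replicates 1 to 3 and 5.63, 5.79 and 4.88 in blue replicates 1 to 3. These folds overlapped between the conditions, but the scale of the folds differed between the lists. Among the 435 genes OMT1 ranked 154, 125 and 226 in the dark lists and 82, 86 and 126 in the blue lists, always below LDOX. The blue ranks were mostly nearer the top, and this difference was not tested.

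CHIL (AT5G05270), a chalcone isomerase-like protein without enzyme activity that improves the output of CHS, had summits in its body in all 6 libraries. Its peaks lay on chromosome 5 between 1564214 and 1564750 and were within 1 kb of AT5G05280. The fold was 4.80, 3.80 and 3.89 in the dark lists and 4.25, 3.66 and 3.94 in the blue lists, again with overlap. Of the other 5 genes of its group, FLS2 to FLS6, none had a summit within 1 kb in any library. The neighbouring genes FLS2 to FLS5 lay 17.5 to 23.6 kb from the nearest summit.

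UGT78D2 (AT5G17050), which glucosylates flavonols and anthocyanins, had a summit in its body in all 3 dark libraries and in no blue library. Its peaks lay on chromosome 5 between 5608964 and 5609270. The fold was 4.00, 2.34 and 3.06 in dark replicates 1 to 3, with a −log10 q of 8.42, 2.49 and 4.02. In the blue lists the nearest summit was 29.0 to 29.1 kb away. All 3 dark and no blue libraries was the pattern of 0.401% of protein-coding genes. At a −log10 q of at least 5 only dark replicate 1 was left. Its relative UGT78D3 had no summit within 1 kb in any library.

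4CL2 (AT3G21240), a 4-coumarate:CoA ligase that feeds the pathway, had a summit at the edge of its body in blue replicate 1 (fold 2.68) and blue replicate 2 (fold 3.10). Both summits were also within 1 kb of AT3G21250. Only that of blue replicate 2 was left at a fold of at least 3 or a −log10 q of at least 5. No dark library had a summit at 4CL2, and the other 7 entry genes, PAL1 to PAL4, C4H, 4CL1 and 4CL3, had none within 1 kb in any library. A summit lay 1530 bp from C4H in dark replicate 1 and 2244 bp from 4CL1 in blue replicate 2. None of the 7 genes of proanthocyanidin synthesis and transport, BAN and TT12 among them, had a summit within 1 kb in any library.

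**Figure D5:**
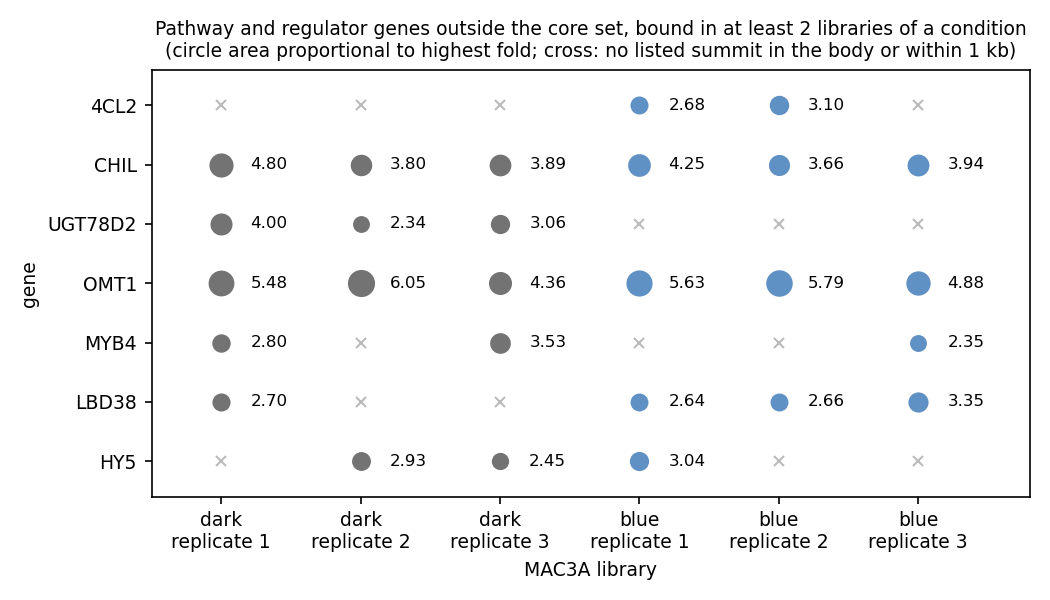
Highest fold enrichment of a MAC3A summit in the body or within 1 kb for the 7 genes of the wider list bound in at least 1 condition, by library. Circle area is proportional to fold and crosses mark no listed summit. OMT1 and CHIL have circles in all 6 libraries, UGT78D2 in the 3 dark ones.

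Of 22 regulator genes, 2 were bound in the dark (9.09%) and 1 in blue light (4.55%), near the 5.62% and 7.37% of all protein-coding genes. The regulators described next are given by their values alone. LBD38 (AT3G49940), a repressor of anthocyanin genes that responds to nitrate, had summits in all 3 blue libraries, with highest folds of 2.64, 2.66 and 3.35. The summit of blue replicate 2 lay in the body and that of blue replicate 1 lay 47 bp outside it. The highest summit of blue replicate 3 lay 15 bp outside, and its body summit had a fold of 2.33. In the dark LBD38 had 1 summit beside the gene, 322 bp outside the body, in replicate 1, with a fold of 2.70. Its relative LBD37 had a summit in blue replicate 2 alone (fold 2.26). MYB4 (AT4G38620), a repressor of phenylpropanoid genes, had summits in dark replicates 1 and 3, with highest folds of 2.80 and 3.53, and in blue replicate 3 with 2.35. The highest summit of dark replicate 3 lay 556 bp outside the MYB4 body, and the body summit of that library had a fold of 2.75. The other summits given lay in the body. HY5 (AT5G11260) had summits in dark replicates 2 and 3, with highest folds of 2.93 and 2.45, and in blue replicate 1 with 3.04. The places differed. The dark summits lay in the HY5 body and within 1 kb of AT5G11250. Those of dark replicate 3 had a −log10 q of 2.13 and 2.48, near the lowest of that list, 2.00. The blue summit lay 156 bp outside the body and within 1 kb of AT5G11270. The folds of LBD38, LBD37, MYB4 and HY5 were below those of LDOX in the same libraries. At a fold of at least 3, HY5 had 0 dark libraries and MYB4 had 1. At a −log10 q of at least 5, MYB4 had 0 dark libraries and HY5 had 1. Under each limit LBD38 had 1 blue library. TT16 (AT5G23260), a MADS-box regulator of seed coat pigment, had no summit within 1 kb but had one 1789 to 1845 bp from its body in every library. Blue replicate 3 had a further summit 1267 bp from the body, with a fold of 2.60. The highest fold of these summits was 6.20, 9.28 and 8.68 in dark replicates 1 to 3 and 5.12, 5.60 and 6.36 in blue replicates 1 to 3. All of them were within 1 kb of AT5G23270. The MYB activators of flavonol genes (MYB11, MYB12 and MYB111) and of anthocyanin genes (PAP1, PAP2, MYB113 and MYB114) had no summit within 1 kb in any library. The same held for GL3, EGL3 and TTG1, which form complexes with such MYB proteins.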

How the data were processed

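Each of the 6 MAC3A libraries has 1 peak list, so replicates were not pooled. The submitters' processing notes name genome build TAIR10 and the tools Bowtie2, SAMtools, ChIPseeker and MACS2 2.1.1. Order, parameters and each list's control are not given in the sources here. The lists were used as deposited. The fold of a summit, a ratio to local background, and its −log10 p and −log10 q were deposited by the authors as their caller wrote them. The deposited score column and the −log10 p entered no result. Groups came from the titles.

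The 64 locus identifiers were matched to a RefSeq gene table (TAIR10.1), which has no strand and whose coordinates are not printed. As a check of its fit to the lists, 79.1% of 9871 summits lay in gene bodies unshifted, against 66.1% to 69.6% after shifts of 1000 or 5000 bp either way.

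All summits of a peak were kept. Peaks overlapping by at least 1 bp were merged into regions. Blue light and dark were compared by exact permutation over the 20 assignments of 6 libraries to 3 and 3, coded in Python 3.11.15 with pandas 2.3.3. The permutation code was tested on values of known order, and the placing of summits in genes on simulated summits. The members and lists were chosen with earlier results of these data known. Genes named were the 9 members, genes of the wider list bound in a condition, neighbours of LDOX and the 5 genes most like it; UGT78D3, LBD37, TT16, SCPL10, the other unbound genes and the genes named beside a summit of another gene were added after their values were seen. Alternatives changed the window (body or 3 kb), the hit (peak overlap), the thresholds, list length, libraries needed, ranking and merging (50% overlap), or left out a library.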

Additional observations from a re-analysis of the deposited data

How the results depend on the processing

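The 1 member bound in each condition and the 6 LDOX libraries were the same under every alternative run, and leaving out any library left 1 and 1. The lowest LDOX fold, 8.80, and lowest −log10 q, 50.3, lay far above the limits used, so those limits could not have removed LDOX. The highest number of libraries among the other 8 members, 1, fell to 0 with lists of equal length, with gene bodies only, with −log10 q limited to 5 or more and with folds limited to 3 or more. Of the wider list, 3 genes were bound in the dark at a fold of at least 3, 2 with −log10 q limited to 5 or more and 3 when all 3 libraries were needed, and 2 were bound in blue light under each of the first pair of limits. With a window of 3 kb the wider list had 6 genes bound in each condition, TT16 being added in both and SCPL10 in blue light. Leaving out 1 library gave 3 to 5 genes in the dark and 3 to 4 in blue light. The share of all protein-coding genes was not computed under these alternatives, so the counts have no background beside them. The rank difference of LDOX, 1.33 places, was -2 when ranked by −log10 q, reversed without blue replicate 3 and ran from -0.5 to 4.5 with 1 library left out (exact permutation test, p from 0.1 to 1.0). The summit difference, 4 bp, reversed without dark replicate 2 and ran from -16.3 to 16.7 bp (exact permutation test, p from 0.2 to 1.0). The causes were not tested. With the replicate block, exact sign flips of the 3 same-numbered differences left the rank difference at 1.33 (p = 0.75) and the summit difference at 4 bp (exact sign flips, p = 1.0). Same-numbered libraries deviated together with correlations of -0.0076, 0.0050 and 0.033 over the 533 shared regions, so the numbers were not taken as pairs. The block was run for these 2 tested results and for no other value. Depth is unknown, and a summit below the caller's threshold is not seen.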
